A study of Mus musculus with 4 samples.

Results

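MAP kinase cascades are relays in which a MAP4K or a small GTPase activates a MAP3K, the MAP3K phosphorylates a MAP2K, and the MAP2K phosphorylates a MAP kinase on a threonine and a tyrosine. Dual-specificity phosphatases, encoded by the Dusp genes, remove phosphate from both residues, and several are themselves induced by the kinases they switch off. In sensory neurons of the dorsal root ganglion (DRG), the ERK branch carries the survival and growth signal of nerve growth factor, and the JNK branch is known for its part in axon injury and degeneration. The 63 genes described here are those of the deposited table whose mouse symbol starts with Mapk, Map2k, Map3k, Map4k or Dusp followed by a digit, or with Mapka. They were taken from 90 of 14236 transcript rows and make up 63 of 11439 genes after summing rows per symbol. By role, they are 11 MAP kinases, 9 MAPK-binding and MAPK-activated proteins, 6 MAP2K, 13 MAP3K, 5 MAP4K and 18 Dusp genes, and 1 non-coding gene, Map2k3os. The choice by symbol also brought in Mapkap1, which encodes the mTORC2 subunit SIN1 and is no MAP kinase. Mapk13, Map2k6 and Dusp16 had no row in the table used here and were not analysed.

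The libraries came from cultured DRG neurons of mouse embryos at day 13.5. The cultures had received a control lentivirus (pLKO, 2 libraries) or a lentivirus for human PROM1, the membrane glycoprotein also called CD133 (2 libraries). Both groups grew with nerve growth factor, which itself activates ERK, and with fluorodeoxyuridine and uridine, so every level below is from stimulated cells. Virus was added on day 2 in culture and the labels name day 5 for RNA, and they do not say whether the sequenced cultures had been replated. The series calls the cultures biological duplicates. The mouse strain, and whether animals were pooled, are in none of the sources used, and the PROM1 level itself was not analysed. Values are FPKM, that is, read numbers corrected for transcript length and library total, so that levels can be compared between genes. Where values are given as a pair against a pair, control cultures 1 and 2 come first and PROM1 cultures 1 and 2 second.

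As facts of the whole table, the deposited library values summed to between 356985 and 384213 FPKM and no read counts could be recovered, so the depth is unknown. Across the 10234 genes tested below, log2 values of control library 1 correlated at 0.941 with PROM1 library 1 and at 0.916 with control library 2, and the PROM1 pair correlated at 0.910, so the closest pair of libraries crossed the groups. Of 15 sensory neuron markers 14 were listed, among them Tubb3 at 547 to 695 FPKM and Prph at 894 to 1253 FPKM. The summed level of the 14 was 5965 and 6417 FPKM in controls, against 5091 and 5766 FPKM with PROM1. Of 13 glial markers 6 were listed, with sums of 361 and 317 against 364 and 365 FPKM, of which Ngfr, which neurons also express, gave 260.5 to 319 FPKM. Of 11 fibroblast markers 5 were listed, with sums of 2071 and 2165 against 2234 and 1969 FPKM, nearly all from Vim, while Col1a1 was at 0.545 and 1.24 against 3.33 and 4.28 FPKM. Of 10 macrophage markers C1qb and Aif1 were listed, at up to 3.51 FPKM, and of 9 endothelial and pericyte markers Acta2 alone, at up to 3.83 FPKM. Of 16 cell cycle genes 6 were listed, with sums of 16.2 and 24.8 against 24.4 and 28.9 FPKM. No listed marker was at 0 in all 4 libraries. The part of other cell types in the values below was not tested, and in bulk RNA fewer cells of a type and less RNA per cell cannot be told apart.

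Among these genes the transcript-level data differed most at Mapk8ip3, which encodes JIP3, a scaffold that holds JNK pathway kinases and links cargo to kinesin and dynein in axons. Its 4 listed RefSeq transcripts differ around a 24-base coding exon on mouse chromosome 17 (GRCm38 chr17:24920472-24920495, minus strand). The stretch is shown from 30 bases before that exon, as spliced, for the transcript that led in the control libraries and for those listed instead in the PROM1 libraries. Capitals mark the bases absent from NM_001163451, and lower case marks flanking coding sequence, from GENCODE M21.

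NM_001163449: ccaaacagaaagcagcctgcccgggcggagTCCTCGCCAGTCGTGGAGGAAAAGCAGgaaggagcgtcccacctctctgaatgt
NM_001163450: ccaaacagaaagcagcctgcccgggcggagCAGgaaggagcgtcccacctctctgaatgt
NM_001163451: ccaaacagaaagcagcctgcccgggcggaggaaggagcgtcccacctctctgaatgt

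NM_001163453 has the same letters here as NM_001163450 and lacks another exon of 18 bases further on. The coding lengths are 3942 bases for NM_001163449, 3918 for NM_001163450, 3915 for NM_001163451 and 3900 for NM_001163453. The GENCODE model of NM_001163451 also ends in a last exon of 271 bases, where the other 3 have 1536 or 1537.

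The transcript with the 24-base exon, NM_001163449, was at 65.7 and 60.2 FPKM in control cultures 1 and 2 and at 10.8 and 0.187 FPKM in PROM1 cultures 1 and 2. It made up 99.90% and 99.99% of the Mapk8ip3 sum in control libraries 1 and 2, and 15.8% and 0.296% in PROM1 libraries 1 and 2. NM_001163451, without that exon, was at 0.0597 and 0.00238 FPKM in control cultures 1 and 2 and at 48.9 and 54.1 FPKM in PROM1 cultures 1 and 2. NM_001163450 and NM_001163453 were under 0.01 FPKM in both controls and reached 3.63 to 5.39 FPKM with PROM1. So the control libraries were listed almost wholly under the transcript that holds the exon, and the PROM1 libraries mostly under transcripts that lack it. The gene sum did not follow: it was 65.8 and 60.2 against 68.4 and 63.3 FPKM, with overlapping groups and a log2 change of 0.06 ± 0.18 (SE).

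In a limma fit on single transcripts, added after the values were seen, NM_001163451 had a log2 change of 5.67 ± 0.24 (SE) with limma adjusted p = 0.0673, and NM_001163449 of -4.10 ± 1.2 (SE) with limma adjusted p = 0.923. That fit called 0 of 12288 transcripts, and 517 (4.21%) had an unadjusted p under 0.05. Among 85 member transcripts 8 did (9.41%), of which 4 were those of Mapk8ip3, which share their reads, and the others were of Dusp5, Dusp15, Map2k7 and Mapk1ip1. Mapk8ip3 was 1 of 17 members with more than 1 listed transcript (5.88%) in which both libraries of a group shared a leading transcript that differed between the groups. Over all such genes tested the share was 5.57%, and 5.27% where the leading transcript also held over 50% of the sum in every library, as in Mapk8ip3, so 1 in 17 is near the background. The authors' deposited table also puts NM_001163449 lower with PROM1 (71.0 FPKM for control and 5.20 FPKM for PROM1, p = 0.201) but divides the remaining PROM1 level otherwise, at 23.5 FPKM under NM_001163451 and 48.1 FPKM under NM_001163453. The lower level of the transcript with the exon was thus in both sets of values, while the division among the transcripts without it was not the same. Both sets describe the same 4 libraries, so the second is no independent measurement. How Cufflinks divides the reads of a gene among transcripts was not tested, and the following members show how that division varied within a group.

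In 8 of the 17 members 1 transcript led in all 4 libraries, as for Map4k4. In 7 members (Map2k4, Map2k7, Map3k12, Map4k2, Mapk8, Mapk14 and Mapkap1) the control libraries led with different transcripts, and in Map2k7 and Mapk9 the PROM1 libraries did. For Mapk9 (JNK2), NM_001163671 was at 30.8 and 41.8 FPKM in control cultures 1 and 2 and at 12.9 and 3.93e-05 FPKM in PROM1 cultures 1 and 2. NM_016961 was at 30.5 FPKM in PROM1 library 2 and at most 0.422 FPKM in the other libraries, and PROM1 library 1 led with NM_207692, at 22.5 FPKM, so the PROM1 libraries led with different transcripts. For Map2k4, NM_001316368 was at 25.3 FPKM in control library 1 and under 0.012 FPKM in each of the other libraries. Gene sums are therefore used from here on.

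**Figure D1:**
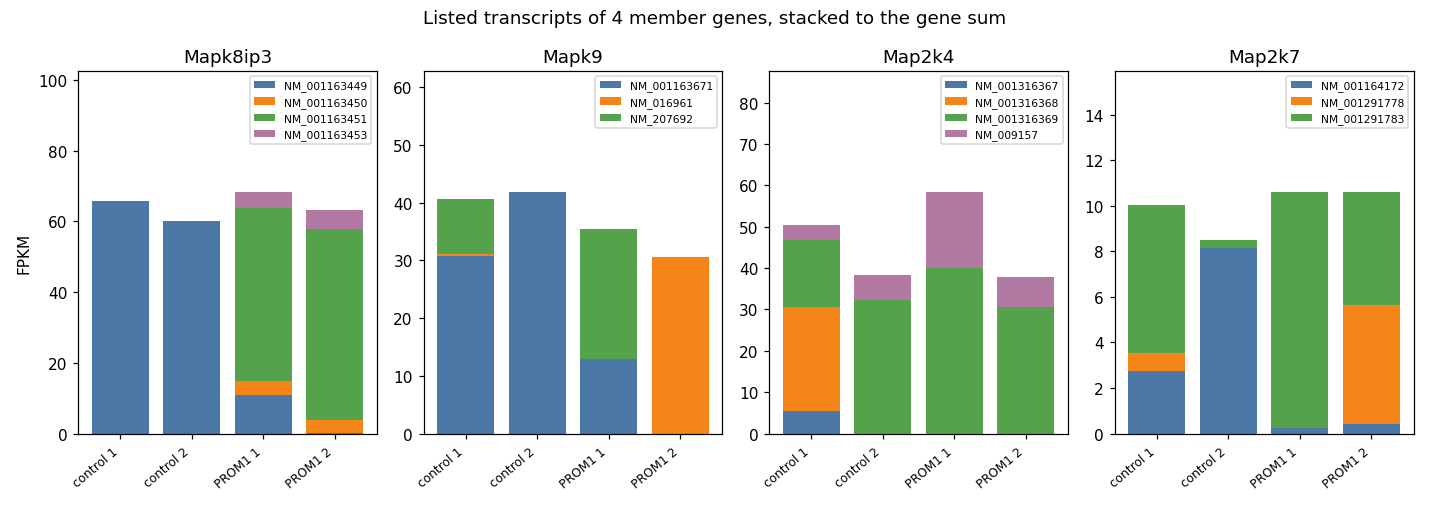
FPKM of each listed RefSeq transcript (colours) stacked to the gene sum in each of the 4 libraries, for Mapk8ip3, Mapk9, Map2k4 and Map2k7 (linear axes from 0, 1 bar per library). For Mapk8ip3 both control bars are filled by NM_001163449 and both PROM1 bars mostly by NM_001163451, at sums of 60.2 to 68.4 FPKM, while for Mapk9 the leading transcript also differs between the PROM1 libraries.

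At the level of genes, 62 of the 63 members reached a mean of 1 FPKM and were tested with limma on log2(FPKM + 1), with p-values adjusted over all 10234 genes tested. That scale understates the change of low genes. Of the 62, 31 had a higher and 31 a lower mean in PROM1 cultures, and 0 were called at an adjusted p under 0.05 (limma, members' adjusted p from 0.937 to 0.999), where 0.0195% of all tested genes were called. At an unadjusted p under 0.05 there were 2 members (3.23%), Dusp5 and Dusp15, where the share of all tested genes was 4.59%. The median log2 change was -0.0064 over the members and -0.029 over all tested genes, and the median absolute log2 change was 0.22 over the members and 0.23 over all tested genes. An absolute log2 change over 0.5 was seen for 8 members (12.9%) and for 20.6% of all tested genes. The groups separated without overlap, PROM1 higher, for 9 of the 62 (14.5%), and PROM1 lower for 12 (19.4%). The background over all tested genes was 16.5% higher and 17.5% lower, so neither count stands apart from it. Both the 8 and the 12 include Map2k2 by its named row alone, and with its second transcript the groups overlapped, as given with the MAP2K genes. The mark of significance in the authors' deposited table was on 0 of the 90 member transcripts and on 0.204% of all rows. A p under 0.05 in the authors' deposited table was held by 2 member transcripts (2.22%), of Map3k7 (p = 0.0242) and Dusp18 (p = 0.0457), against 4.71% of all rows, and both had q = 0.865. Relabelling 2 against 2 libraries in an exact permutation test cannot reach a two-sided p below 0.333.

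**Figure D2:**
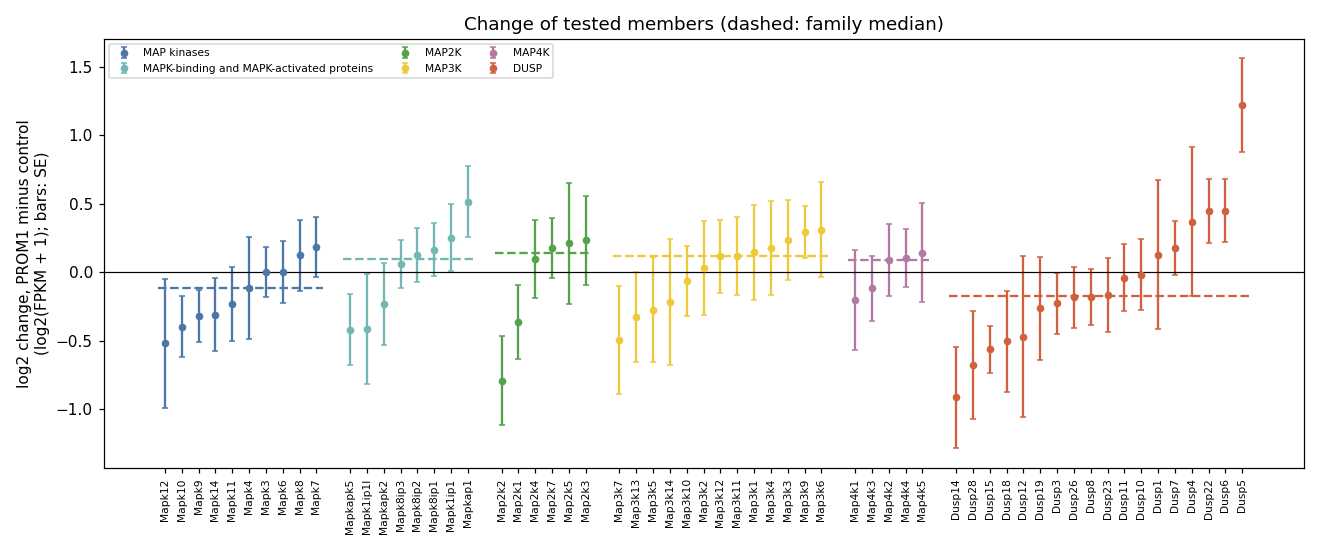
Log2 change (PROM1 minus control, on log2(FPKM + 1)) of tested coding members, 1 point per gene, with its limma SE as bars (Map2k2 by its named row alone), ordered within 6 role groups, each in its own colour with the median of all tested members of that group as a dashed line. Most members lie within 0.5 of 0, and Dusp5, at 1.22, stands at the top of the Dusp genes.

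Levels spanned from 0.775 FPKM for Mapkapk3 to 305 FPKM for Mapk3 as means over 4 libraries, and the median member stood at 8.41 FPKM, where the median tested gene stood at 6.83 FPKM. Mapk3 (ERK1) was at 329.6 and 281 FPKM in control cultures 1 and 2 and at 291 and 320.2 FPKM in PROM1 cultures 1 and 2. It lay above every other member in every library and held 67.2% to 74.4% of the summed FPKM of the 11 MAP kinases. Mapk8ip1 (JIP1), a JNK scaffold that binds kinesin, came next at 156 and 145 against 151 and 188 FPKM, and its lowest library lay above the highest of the following gene, Mapk1ip1. Mapk1ip1 was at 118 and 78.8 against 118 and 112 FPKM and Dusp15 at 86.6 and 95.7 against 60.3 and 62.3 FPKM, and these neighbours overlapped. Mapkapk3, a kinase activated by p38, was the member left out of the test, at 0.149 and 0 against 2.01 and 0.944 FPKM. Both of its control libraries lay below both PROM1 libraries, close to the lower end of what was listed.

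**Figure D3:**
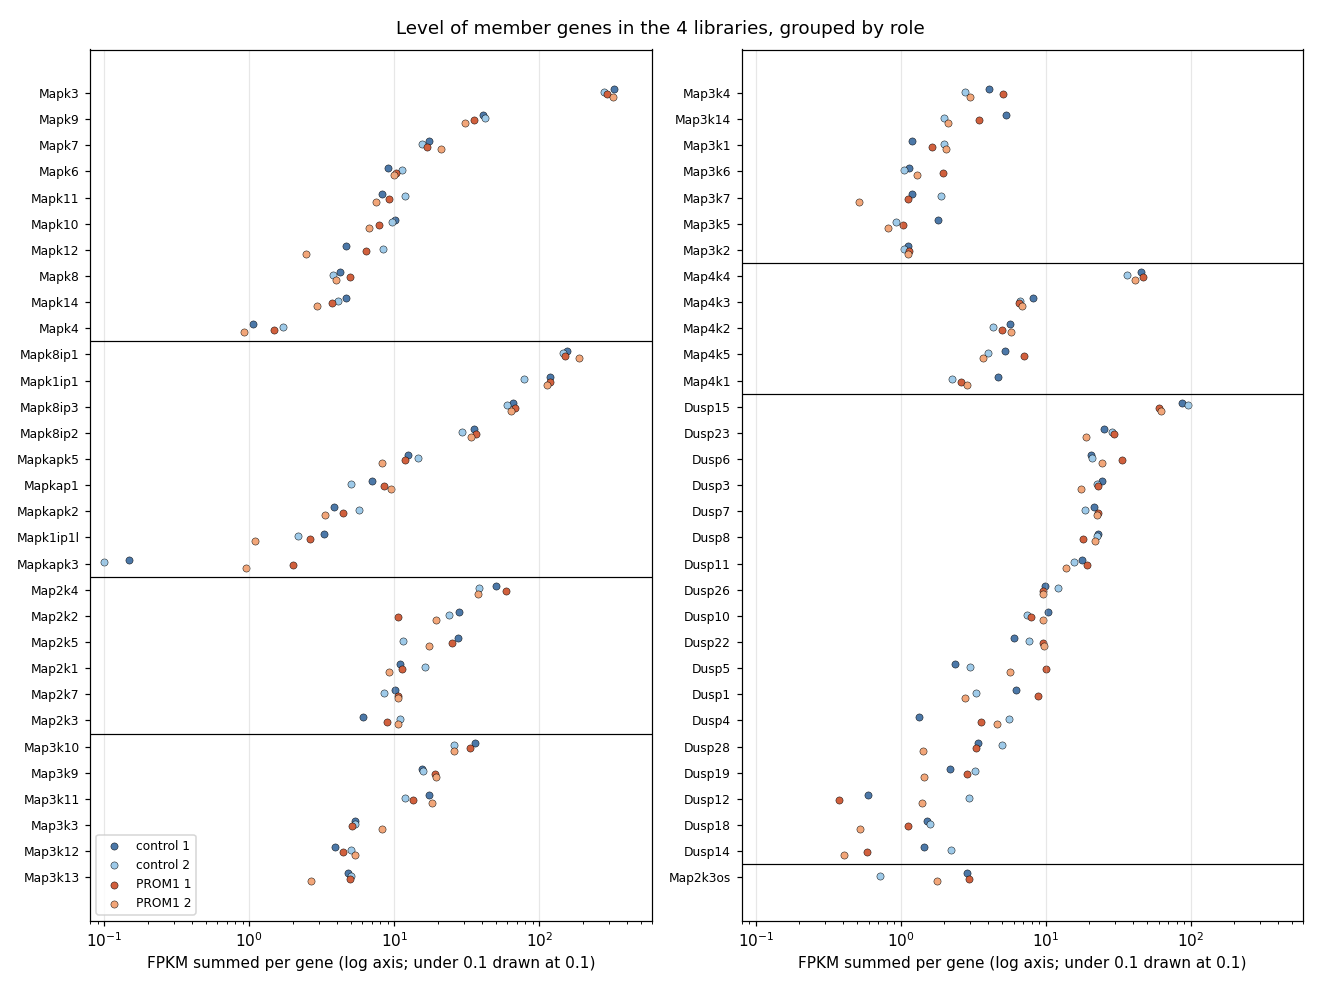
FPKM summed per gene (log axis) for member genes in the 4 libraries, 1 point per library, grouped by role between horizontal lines and ordered by mean level. Mapk3, at 281 to 329.6 FPKM, lies above all other members, and for most genes the blue control points and the orange PROM1 points overlap.

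Among the 11 MAP kinases 4 had a higher and 7 a lower mean, with a median log2 change of -0.11, which was -0.30 without PROM1 library 1, -0.23 without control library 1 and 0.018 without PROM1 library 2. The groups separated for 3 of them, each with PROM1 lower, where 17.5% of all tested genes lay lower without overlap, and 0 were called (limma). Summed over the 11, the level was 460.5 and 418 FPKM in the control libraries and 420.2 and 431 FPKM in the PROM1 libraries. In the ERK branch Mapk3 had a log2 change of 0.0036 ± 0.18 (SE). Mapk7 (ERK5), whose kinase domain is followed by a long tail that acts in transcription, was at 17.3 and 15.4 against 16.7 and 20.97 FPKM, and the atypical Mapk6 (ERK3) was at 8.997 and 11.3 against 10.2 and 10.02 FPKM. Its relative Mapk4 (ERK4) was near the lower limit of the test, at 1.05 and 1.72 against 1.48 and 0.919 FPKM.

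The 3 genes whose groups did not overlap belonged to the JNK and p38 branches. Mapk10 (JNK3), the JNK gene known for its neuronal expression, was at 10.04 and 9.58 FPKM in control cultures 1 and 2 and at 7.78 and 6.67 FPKM in PROM1 cultures 1 and 2, a log2 change of -0.40 ± 0.22 (SE). Mapk9 (JNK2) was at 40.7 and 41.9 FPKM in control cultures 1 and 2 and at 35.4 and 30.5 FPKM in PROM1 cultures 1 and 2, a log2 change of -0.32 ± 0.19 (SE). Mapk14 (p38 alpha) was at 4.64 and 4.08 FPKM in control cultures 1 and 2 and at 3.74 and 2.93 FPKM in PROM1 cultures 1 and 2, a log2 change of -0.31 ± 0.27 (SE). Each was lower in both PROM1 libraries, and none passed the test (limma adjusted p = 0.937 for each of the 3). For Mapk14 the authors' deposited group values went the other way in both listed transcripts. They were 1.32 FPKM for control and 2.08 FPKM for PROM1 in 1 transcript, and 6.30 and 6.43 FPKM in the other. For Mapk9 and Mapk10 the direction of the deposited group values differed between transcripts. Mapk8 (JNK1) went the other way in its mean, at 4.24 and 3.79 against 4.97 and 3.99 FPKM, with overlapping groups. Mapk9 was at 2.78 to 3.13 times the summed level of Mapk8 and Mapk10 in the 4 libraries. Mapk11 (p38 beta) was at 8.24 and 11.8 against 9.16 and 7.48 FPKM and Mapk12 (p38 gamma) at 4.61 and 8.32 against 6.34 and 2.47 FPKM, and in both genes control library 1 lay below PROM1 library 1 while control library 2 lay above PROM1 library 2.

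The proteins that bind MAP kinases or are activated by them had a median log2 change of 0.09 over 8 tested genes, 5 with a higher and 3 with a lower mean, and 0 were called (limma). That median was -0.0049 without control library 2 and -0.32 over genes with 1 listed transcript alone. The JNK scaffolds were close to level: Mapk8ip1 had a log2 change of 0.17 ± 0.19 (SE), Mapk8ip2 (JIP2) of 0.13 ± 0.20 (SE) and Mapk8ip3 of 0.06 ± 0.18 (SE). Mapkap1, the mTORC2 subunit, was at 7.06 and 5.02 FPKM in control cultures 1 and 2 and at 8.42 and 9.53 FPKM in PROM1 cultures 1 and 2. Its groups did not overlap, at a log2 change of 0.52 ± 0.26 (SE) and limma adjusted p = 0.937. Mapkapk5, a kinase downstream of p38 and ERK3, was lower in PROM1 without overlap, at 12.5 and 14.6 against 11.8 and 8.21 FPKM. Mapkapk2 (MK2), a p38 substrate kinase, was at 3.84 and 5.69 against 4.399 and 3.35 FPKM, and Mapk1ip1l at 3.25 and 2.16 against 2.61 and 1.09 FPKM, both with overlapping groups. The authors' deposited group values for Mapk1ip1l were 15.9 FPKM for control and 18.3 FPKM for PROM1. They lay above all its library values, whose mean was lower with PROM1. Deposited group values also exceeded all library values for other members, among them Mapk8ip2 (59.3 and 57.1 FPKM), Dusp10 (13.4 and 16.0 FPKM) and Dusp26 (21.0 and 15.8 FPKM).

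Of the 6 MAP2K genes 4 had a higher and 2 a lower mean, with a median log2 change of 0.14, which turned to -0.096 without control library 2 and to -0.12 without PROM1 library 1, and 0 were called (limma). The rows named Map2k2 (MEK2, a kinase of the ERK branch) were at 27.8 and 23.6 FPKM in control cultures 1 and 2 and at 10.6 and 19.4 FPKM in PROM1 cultures 1 and 2, the lowest log2 change of the family at -0.79 ± 0.32 (SE). This value does not describe the gene, because a second transcript, NM_001347144, had no symbol in the deposited table and belongs to Map2k2 by its RefSeq accession. That transcript was at 10.6 and 23.7 FPKM in controls and at 28.2 and 19.4 FPKM in PROM1 cultures. With both transcripts Map2k2 was at 38.3 and 47.4 against 38.8 and 38.8 FPKM, with overlapping groups and a log2 change of -0.13. Map2k1 (MEK1) was at 10.96 and 16.3 against 11.2 and 9.24 FPKM, with overlapping groups. Map2k4 and Map2k7, which both phosphorylate JNK, were at 50.4 and 38.2 against 58.5 and 37.9 FPKM and at 10.1 and 8.51 against 10.6 and 10.6 FPKM. Map2k7 lay above both control libraries in both PROM1 libraries, by a log2 change of 0.18 ± 0.22 (SE). Map2k5, the kinase of ERK5, was at 27.3 and 11.5 against 24.9 and 17.3 FPKM, and Map2k3, a p38 kinase, at 6.06 and 10.9 against 8.96 and 10.6 FPKM. In both of these genes the control libraries were further apart than the group means. Map2k3os, listed at 2.85 and 0.723 against 2.98 and 1.79 FPKM, lies opposite Map2k3, and since the use of strand in counting is not given, the reads of this gene and Map2k3 may not be told apart.

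The 13 MAP3K genes had a median log2 change of 0.12, which was -0.036 without control library 2. Of them 8 had a higher and 5 a lower mean, and 0 were called (limma). Map3k12 (DLK), known as a sensor of axon injury in DRG neurons, was at 3.89 and 5.004 FPKM in control cultures 1 and 2 and at 4.44 and 5.35 FPKM in PROM1 cultures 1 and 2. Its relative Map3k13 (LZK) was at 4.77 and 4.99 FPKM in control cultures 1 and 2 and at 4.98 and 2.67 FPKM in PROM1 cultures 1 and 2, where PROM1 library 2 alone stood apart from the other 3. Neither had groups that separated. The mixed-lineage kinases, which also feed the JNK branch, were the MAP3K genes with the highest levels. Map3k10 (MLK2) was at 36.2 and 25.7 against 33.2 and 25.7 FPKM, Map3k9 (MLK1) at 15.4 and 15.7 against 19.1 and 19.5 FPKM and Map3k11 (MLK3) at 17.3 and 11.9 against 13.4 and 18.3 FPKM. Of these Map3k9 had both PROM1 libraries above both controls, with replicates close together, at a log2 change of 0.29 ± 0.19 (SE). Map3k7 (TAK1), a kinase of the TGF-beta and interleukin-1 pathways, was at 1.198 and 1.89 against 1.12 and 0.513 FPKM, which is -0.49 ± 0.39 (SE) on the log2 scale. The authors' deposited table gives its group values as 7.02 and 4.36 FPKM, above any of its library values, so the libraries do not bear out that level. The other 7 genes (Map3k1, Map3k2, Map3k3, Map3k4, Map3k5, Map3k6 and Map3k14) had log2 changes from -0.27 to 0.31. Of these Map3k2 (1.12 and 1.05 against 1.14 and 1.12 FPKM) and Map3k6 (1.14 and 1.06 against 1.95 and 1.303 FPKM) were higher without overlap, at low levels.

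Another row, NM_001164791, is named Zak in the deposited table and Map3k20 in the RefSeq table. It falls outside the choice by symbol and was noticed after its values were seen. It was at 4.13 and 7.05 FPKM in controls and 9.02 and 8.97 FPKM in PROM1 cultures. The 5 MAP4K genes had log2 changes between -0.20 and 0.14, with a median of 0.09 that was -0.081 without PROM1 library 1, -0.074 without control library 2 and 0.26 without control library 1, and all 5 had overlapping groups. The most abundant was Map4k4, a kinase upstream of JNK and of DLK signalling, at 45.7 and 36.2 FPKM in control cultures 1 and 2 and at 46.8 and 41.04 FPKM in PROM1 cultures 1 and 2. Map4k3 was at 8.12 and 6.64 against 6.498 and 6.895 FPKM and Map4k2 at 5.71 and 4.34 against 5.03 and 5.75 FPKM. Map4k1 was at 4.66 and 2.26 against 2.596 and 2.88 FPKM and Map4k5 at 5.23 and 3.99 against 7.13 and 3.68 FPKM, and these 2 genes marked the ends of the family's range.

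The log2 changes of the Dusp genes ran from -0.91 to 1.22, where those of the kinases and binding proteins ran from -0.52 to 0.52, leaving out the incomplete named row of Map2k2. Of the 18 Dusp genes 6 had a higher and 12 a lower mean, 4 lay above and 6 below without overlap, and 0 were called (limma). Over all tested genes 16.5% lay above and 17.5% below. The median was -0.17, and 0.01 without PROM1 library 2. The family divides by structure into MAP kinase phosphatases that carry a kinase-binding domain and smaller atypical enzymes without one, a division applied here with the values known. Of 7 listed with the domain (Dusp1, Dusp4, Dusp5, Dusp6, Dusp7, Dusp8 and Dusp10), 5 had a higher and 2 a lower mean, with a median log2 change of 0.18. Of 11 atypical ones, 1 had a higher and 10 a lower mean, with a median of -0.26, -0.47 when either control library 1 or PROM1 library 1 was left out, and -0.13 when control library 2 was. The difference between these sets was not tested.

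Dusp5 encodes a nuclear phosphatase that acts on ERK and is induced by ERK activity. It was at 2.37 and 3.03 FPKM in control cultures 1 and 2 and at 10.1 and 5.66 FPKM in PROM1 cultures 1 and 2. Both PROM1 libraries were above both control libraries, and the log2 change was 1.22 ± 0.34 (SE), or 2.33-fold on the log2(FPKM + 1) scale, the largest of any tested member on that scale. With a pseudocount of 5 it was 0.72, and with a pseudocount of 0.1 it was 1.46, where Dusp14, at -1.69, lay further from 0. It did not pass over all genes (limma unadjusted p = 0.0154, adjusted p = 0.937, which ran from 0.752 to 1 over the alternatives). Without PROM1 library 1 the log2 change was 0.85, and without PROM1 library 2 it was 1.59. Dusp6, the cytoplasmic ERK phosphatase, was at 20.5 and 20.8 FPKM in control cultures 1 and 2 and at 33.5 and 24.4 FPKM in PROM1 cultures 1 and 2, with control libraries close together and both PROM1 libraries above them, at a log2 change of 0.45 ± 0.23 (SE) and limma adjusted p = 0.937. Dusp7, also cytoplasmic and acting on ERK, was at 21.5 and 18.6 FPKM in control cultures 1 and 2 and at 23.1 and 22.4 FPKM in PROM1 cultures 1 and 2, a small difference of 0.18 ± 0.20 (SE) on the log2 scale without overlap. The ratio of Dusp6 to Dusp5 was 8.64 and 6.88 in the control libraries and 3.32 and 4.31 in the PROM1 libraries, without overlap.

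The remaining phosphatases with the domain did not separate upward. Dusp1, which acts on p38, JNK and ERK and is an immediate early gene, was at 6.19 and 3.3 FPKM in control cultures 1 and 2 and at 8.82 and 2.77 FPKM in PROM1 cultures 1 and 2, and its values followed the library number rather than the group. Dusp4, a nuclear phosphatase, was at 1.33 and 5.603 FPKM in control cultures 1 and 2 and at 3.57 and 4.64 FPKM in PROM1 cultures 1 and 2, and its control libraries held both the lowest and the highest value. Dusp8, which acts on JNK and p38, was at 22.9 and 22.4 against 17.98 and 22.05 FPKM, with both PROM1 libraries below. Dusp10, with the same preference, was at 10.4 and 7.48 against 7.94 and 9.59 FPKM, with overlapping groups.

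**Figure D4:**
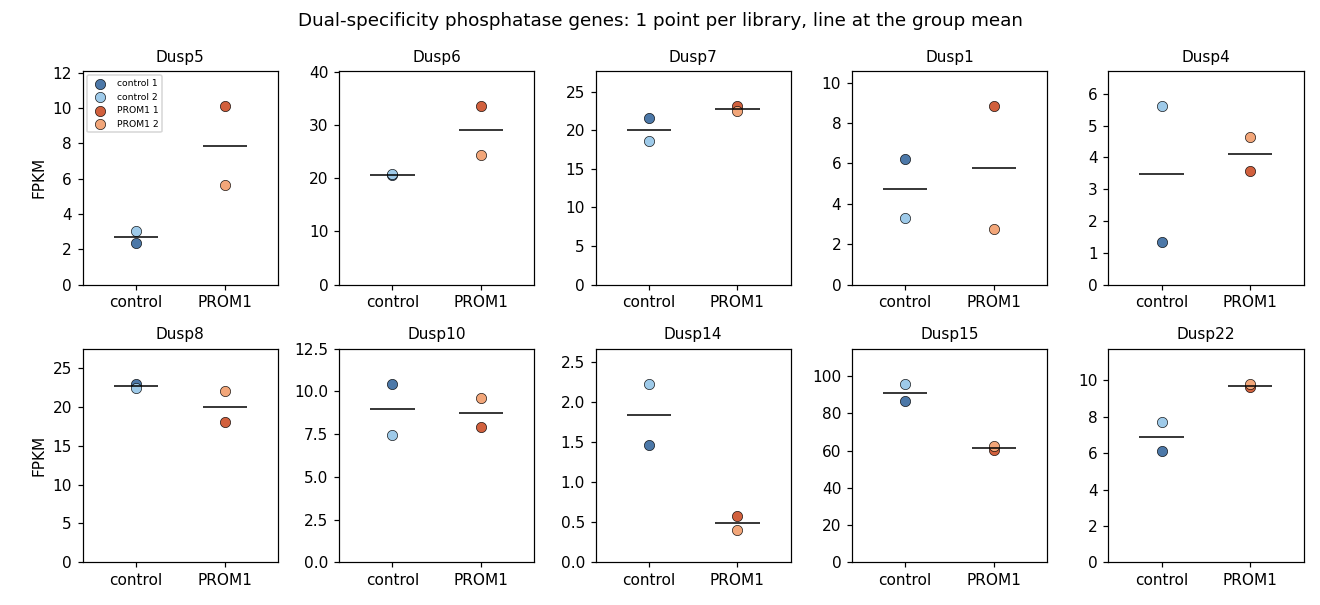
FPKM of 10 Dusp genes, 1 point per library with a line at the group mean (linear axes from 0, each panel with its own scale, n = 2 a group). The PROM1 points lie above the control points for Dusp5, Dusp6, Dusp7 and Dusp22 and below them for Dusp8, Dusp14 and Dusp15, and they overlap for Dusp1, Dusp4 and Dusp10.

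The promoter of Dusp5 is shown because Dusp5 had the largest change among the tested members on the log2(FPKM + 1) scale, and its known induction runs through serum response factor, which binds CArG boxes. Printed are the 250 bases before the RefSeq start (GRCm38.p6 chr19:53528895-53529144, plus strand), with CArG boxes in capitals.

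Dusp5: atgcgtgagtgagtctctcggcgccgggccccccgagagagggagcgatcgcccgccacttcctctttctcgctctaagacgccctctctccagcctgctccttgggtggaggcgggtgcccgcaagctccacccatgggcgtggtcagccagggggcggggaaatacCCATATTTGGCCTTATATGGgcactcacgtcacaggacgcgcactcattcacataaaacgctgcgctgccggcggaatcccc

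Both boxes lie next to each other, starting 82 and 72 bases before the start. A CArG box, searched on both strands in the same window, was found in 1 of the 52 members with an entry in that table, Dusp5, and in 1.62% of all 27025 genes with an entry. So 1 in 52 is near the background. Counted by window, 1.47% of 32851 held one. The ETS motif CCGGAA (12.03% of windows), the cAMP response element TGACGTCA (1.55%) and the AP-1 motif TGANTCA (6.75%) were also searched on both strands, and none was found in this window of Dusp5 or in that of Dusp6. Only these letter patterns were searched, so looser forms of the motifs were not covered. A match is a description of letters and not a measured site.

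Among the atypical phosphatases Dusp15 was the most abundant, at 86.6 and 95.7 FPKM in control cultures 1 and 2 and at 60.3 and 62.3 FPKM in PROM1 cultures 1 and 2. The control pair and the PROM1 pair were each close together and did not overlap, and the log2 change was -0.56 ± 0.17 (SE) (limma unadjusted p = 0.0222, adjusted p = 0.937, and from 0.72 to 1 over the alternatives). Its main transcript, NM_145744, carried the difference, at 73.8 and 84.8 FPKM in control cultures 1 and 2 and at 47.3 and 52.8 FPKM in PROM1 cultures 1 and 2, while NM_001159376 overlapped between the groups. Dusp15 is known to act in the differentiation of oligodendrocytes, a glial cell type. The glial markers used here were chosen for other glia, Schwann cells and satellite glia. Of the 6 listed glial markers, 5 had a lower mean and 1, Ngfr, a higher mean. Pmp22 (44.9 and 28.8 against 18.8 and 20.7 FPKM) and Mbp (15.9 and 16.8 against 12.9 and 15.5 FPKM) were lower without overlap, Ngfr was higher without overlap, and Sox10, S100b and Gjc3 overlapped. The summed level was 361 and 317 against 364 and 365 FPKM. Most of that sum came from Ngfr, which neurons also express, at 284 and 260.5 against 319 and 319 FPKM. The sum therefore does not describe the other glial markers. Whether glial RNA had a part in the Dusp15 value was not tested. Dusp14, also called MKP6, was at 1.46 and 2.22 FPKM in control cultures 1 and 2 and at 0.584 and 0.409 FPKM in PROM1 cultures 1 and 2, lower in both PROM1 libraries at a low level, with a log2 change of -0.91 ± 0.37 (SE). At this level the pseudocount sets the size: it was -1.69 with a pseudocount of 0.1 and -0.31 with a pseudocount of 5. Dusp28 was at 3.43 and 5.01 against 3.29 and 1.43 FPKM and Dusp18 at 1.51 and 1.58 against 1.12 and 0.522 FPKM, both lower without overlap. The log2 change of Dusp18 was -0.51 ± 0.37 (SE), and -0.92 with a pseudocount of 0.1 and -0.17 with a pseudocount of 5. The authors' deposited table gives Dusp18 group values of 7.57 and 5.05 FPKM, again above the library values. Dusp22, a phosphatase that acts on JNK signalling, was the atypical gene with a higher mean, at 6.09 and 7.73 FPKM in control cultures 1 and 2 and at 9.64 and 9.79 FPKM in PROM1 cultures 1 and 2, with a log2 change of 0.44 ± 0.23 (SE). Dusp23 was at 25.1 and 28.6 against 29.5 and 19.1 FPKM, with overlapping groups. The remaining Dusp3, Dusp11, Dusp12, Dusp19 and Dusp26 had log2 changes from -0.47 to -0.04, and of these Dusp26 alone was lower without overlap, at 9.92 and 12.1 against 9.55 and 9.53 FPKM.

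Genes of the pathway were followed as 6 lists. The list of kinases activated by MAP kinases also holds the members Mapkapk2, Mapkapk3 and Mapkapk5. In any of the lists 0 genes were called over all genes (limma). At an unadjusted p under 0.05 (limma) there were 0, 0, 3, 2, 0 and 0 in the order given here. The share of all tested genes was 4.59%. The 3 were Egr1 and Fos, with higher means, and Etv1, with a lower mean. The 2 of the JNK list both had lower means, and Atf2 was among them. From the nerve growth factor receptor to RAS, 9 of 24 tested genes had a higher and 15 a lower mean, with a median log2 change of -0.058. Ngfr, the neurotrophin receptor, was higher in both PROM1 libraries, at 284 and 260.5 against 319 and 319 FPKM, and is named with its values known. The 4 largest differences were those of the GTPase Nras (9.25 and 8.46 against 8.23 and 2.68 FPKM), the adaptor Shc3 (28.7 and 13.9 against 27.7 and 35.9 FPKM), the GTPase Rap1a (1.19 and 4.102 against 1.28 and 1.38 FPKM) and the RAS inhibitor Rasa1 (2.67 and 2.91 against 4.04 and 4.24 FPKM). Among 15 RAF kinases and ERK scaffolds, 5 had a higher and 10 a lower mean, 6 lay below without overlap and 1 above (17.5% and 16.5% of all tested genes), and the median was -0.22, or -0.045 without control library 2. Ksr2 was at 5.07 and 3.45 against 3.12 and 1.94 FPKM and Ksr1 at 4.35 and 2.503 against 3.93 and 5.31 FPKM, both scaffolds of RAF, MEK and ERK. Lamtor2, a subunit of the lysosomal Ragulator complex that anchors MEK1, was at 3.41 and 8.27 against 3.04 and 1.997 FPKM.

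Among 20 tested feedback and target genes of ERK, 14 had a higher and 6 a lower mean, 7 lay above without overlap and 3 below, and the median log2 change was 0.24, or 0.084 without PROM1 library 1. Beside 7 of 20 above and 3 of 20 below, the background over all tested genes was 16.5% above and 17.5% below. The largest were immediate early genes: Egr1 was at 0.312 and 1.37 against 4.16 and 5.03 FPKM, Fos at 0.858 and 1.78 against 6.08 and 3.22 FPKM, Arc at 2.77 and 6.09 against 10.96 and 6.46 FPKM and Ier2 at 3.67 and 2.62 against 7.84 and 3.92 FPKM. The higher values of Egr1 and Fos were known when the list was chosen. Feedback genes that are not immediate early genes lay on both sides. Spry4, an inhibitor of receptor signalling to RAS, was at 19.8 and 24.8 against 33.2 and 30.96 FPKM, while the ETS factors Etv1 and Etv5 were at 68.6 and 69.9 against 49.8 and 41.4 FPKM and at 59.9 and 47.9 against 43.9 and 33.2 FPKM, both lower without overlap. Spry4, Etv1 and Etv5 are named with their values known, outside the naming rule.

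Among 17 genes of the JNK, AP-1 and injury response, 8 had a higher and 9 a lower mean, with a median of -0.082, which ran from -0.18 (PROM1 library 1 left out) to 0.19 (PROM1 library 2 left out). Jun, the target for which JNK is named, was at 4.78 and 4.22 against 4.72 and 3.71 FPKM, with overlapping groups. Atf2, a substrate of JNK and p38, was at 3.72 and 3.102 against 1.64 and 1.403 FPKM. Gadd45a, a stress protein that activates MEKK4, was at 1.49 and 0 against 2.26 and 2.44 FPKM, Tab1, the partner of TAK1, at 2.32 and 3.68 against 2.25 and 0.802 FPKM, and Arhgef10, an exchange factor, at 2.42 and 1.302 against 0.000131 and 1.07 FPKM. Among 8 kinases activated by MAP kinases, with the members Mapkapk2 and Mapkapk5 among them, the median was -0.12. Rps6ka3 (RSK2) was at 8.25 and 8.53 against 6.82 and 5.33 FPKM and Rps6ka1 (RSK1) at 7.77 and 7.897 against 9.43 and 10.1 FPKM, opposite in direction and both without overlap. Among 17 genes listed as other phosphatases 9 had a higher and 8 a lower mean, with a median of 0.058, which was -0.18 without PROM1 library 1. That list also counts Ssh1 and its relatives Ssh2 and Ssh3, which are not known as MAP kinase phosphatases. Ppp2ca, the catalytic subunit of PP2A, was at 57.9 and 67.6 against 45.3 and 46.5 FPKM, and Ptprr, a tyrosine phosphatase of ERK, at 7.99 and 7.51 against 5.48 and 5.32 FPKM, both lower without overlap. Ssh1, a cofilin phosphatase, was at 14.5 and 10.1 against 16.5 and 17.3 FPKM and the pseudophosphatase Styx at 3.18 and 2.88 against 2.33 and 1.66 FPKM.

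**Figure D5:**
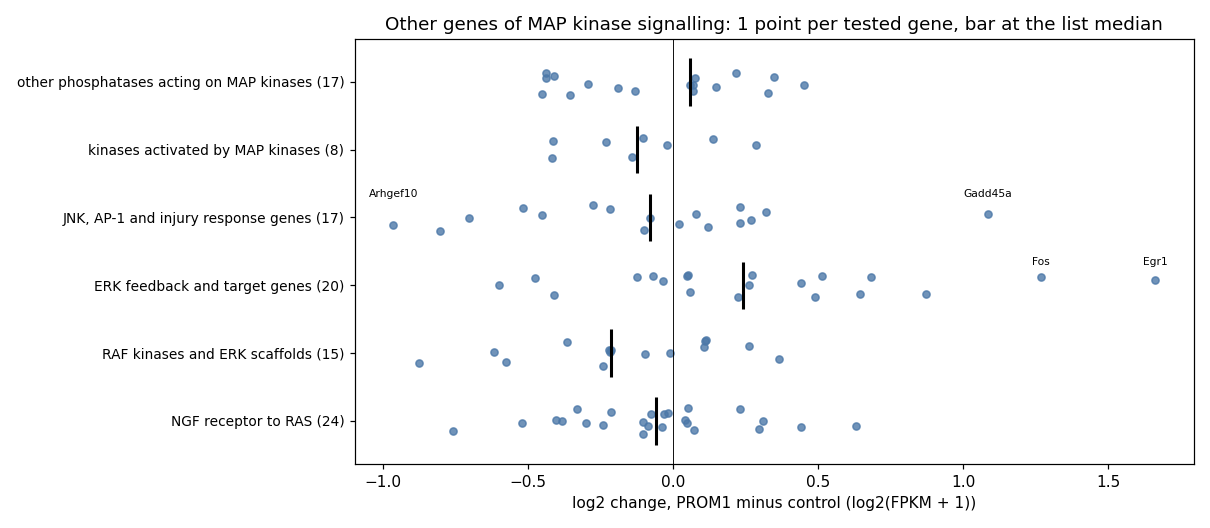
Log2 change (PROM1 minus control, on log2(FPKM + 1)) of each tested gene in 6 lists of MAP kinase pathway genes, 1 point per gene (vertical jitter has no meaning), with a bar at the list median and the number of genes in brackets. Genes beyond 0.9 are named. Egr1, at 1.66, and Fos, at 1.27, lie furthest to the right in the list of ERK targets, whose median is 0.24.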

How the data were processed

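RNA from 4 cultures (2 control, 2 PROM1) was read by single-end sequencing. Per the submitters' processing notes the tools were CASAVA and TopHat2 with mouse build mm9. For the annotation, the use of strand and the tool of the group comparison, the sources used here give nothing. Per the file headers, the authors deposited a Cufflinks FPKM per library and an FPKM per group for each of 14236 transcript rows, with p-values, q-values, a log2 ratio and its version with 0.1 added. The deposited −log10 values equal those of the p-values. The deposited log2 score is written as a very large number where a group is at 0 and was not used. Low values of transcripts of genes with 1 listed transcript shared no log2 ratio (rounded to 0.01) between libraries in more than 3.23% of 117 to 160 transcripts per pair, so no whole reads were recovered and no count test was run.

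Symbols were read from the descriptions. The 241 rows without one stayed under their accession, and 39 rows with a missing value (0 of them members) were left out. FPKM was summed per symbol to 11439 genes. Where the mean over libraries reached 1 FPKM, genes entered a fit by limma 3.58.1 under R 4.3.3, using a variance trend, on log2(FPKM + 1), Benjamini-Hochberg adjusted over 10234 genes. The test was checked on simulated data. Named are members without overlap and with an absolute log2 change of at least 0.5, the 3 most abundant of each family, members of known role, members with a deposited q under 0.1 (there were 0), and the 4 largest changes of each pathway list. Other members are named with their values known, and a few genes are in the counts and medians but not reported here. The members, lists and tests were chosen with earlier results of these data known. The deposited files are on mm9 and the sequences on GRCm38, joined by accession or symbol alone. Alternatives changed the pseudocount, filter, scaling, variance trend, block and libraries used.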

Additional observations from a re-analysis of the deposited data

How the results depend on the processing

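With 2 libraries a group, unknown depth and FPKM divided among transcripts, small differences of these genes could not be resolved. The library numbers were not shown to pair the cultures: deviations of same-numbered libraries correlated at 0.129, over 2 pairs. With the replicate block 1 of all genes was called (611 at an unadjusted p under 0.05), and 0 members. Over the alternatives, 0 of 522 log2 changes of the 39 named members were called (limma, lowest adjusted p 0.709), and 30 had another sign, in 22 members. The cause was not tested for the values that follow.

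With a pseudocount of 5 the median log2 change of RAF kinases and scaffolds was -0.12. With a mean of at least 5 FPKM, where fewer genes are tested, 7 members lay below without overlap, and the medians were -0.027 for Dusp genes and 0.14 for ERK targets. With genes of 1 listed transcript alone, again fewer genes, the medians were -0.11 for all members, -0.32 for MAPK-binding and MAPK-activated proteins, -0.075 for MAP2K, -0.12 for MAP4K and -0.13 for other phosphatases. With rows summed by accession, added after seeing the data, Map2k2 had a log2 change of -0.13.

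Leaving out 1 library at a time, 0 to 8 of all genes were called (0 without either control library), 14 to 25 members lay above and 15 to 29 below without overlap, a count that fewer libraries raise by construction. The median log2 change ran from -0.10 to 0.030 for all members, -0.30 to 0.018 for MAP kinases, -0.0049 to 0.17 for MAPK-binding and MAPK-activated proteins, -0.12 to 0.15 for MAP2K, -0.036 to 0.18 for MAP3K, -0.081 to 0.26 for MAP4K and -0.22 to 0.010 for Dusp genes. It ran from 0.076 to 0.28 for phosphatases with the kinase-binding domain and -0.47 to -0.13 for atypical ones. For the pathway lists it ran from -0.086 to 0.014 (receptor to RAS), -0.17 to -0.045 (RAF and scaffolds), 0.084 to 0.24 (ERK targets), -0.18 to 0.19 (JNK), -0.24 to -0.083 (activated kinases) and -0.18 to 0.11 (other phosphatases).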
